A study of Mus musculus with 11 samples.

Results

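Expression of 10 genes that restrain the cell cycle was followed across 11 skin tumours of a genetically engineered mouse melanoma model. They are the CDK inhibitor genes Cdkn2a, Cdkn2b, Cdkn2c, Cdkn2d, Cdkn1a, Cdkn1b and Cdkn1c, the tumour suppressor genes Trp53 and Rb1, and Mdm2. They were chosen by name from the 18756 mouse genes of the count table, all 10 were present, and all 10 passed the filter on low counts. The tumours were taken at end point from C57BL/6 mice of 3 labelled genotypes: GNA11 Q209L (2 tumours), GNA11 Q209L Bap1 KO (5 tumours) and BRAF V600E Bap1 KO (4 tumours). GNA11 Q209L is an activating change of a G protein subunit known from uveal melanoma, BRAF V600E is the common kinase mutation of cutaneous melanoma, and Bap1 encodes a nuclear deubiquitinase. The labels give neither the Cre driver nor the age or sex of the mice, and do not say whether the tumours of a group came from separate animals. GNA11 Q209L Bap1 KO replicates 1 and 2 share an identifier in their titles. Replicate numbers are only names, given in accession order, and p-values measure the spread between these samples.

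The product of Rb1 holds E2F transcription factors and thereby keeps cells from entering S phase, until cyclin-dependent kinases (CDKs) phosphorylate it. The INK4 inhibitors, encoded by Cdkn2a to Cdkn2d, bind the D-cyclin kinases Cdk4 and Cdk6, while the CIP/KIP inhibitors, encoded by Cdkn1a to Cdkn1c, act on a wider set of cyclin-CDK complexes. p53, the product of Trp53, switches on Cdkn1a and also Mdm2, whose product sends p53 for degradation. Cdkn2a encodes p16Ink4a and, from another first exon and reading frame, p19Arf, which holds Mdm2 back. Loss of CDKN2A is a known step in the progression of melanoma.

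The promoter sequences of Cdkn2a, Cdkn2b and Cdkn1a are shown. The first pair of genes showed the same split among the BRAF V600E Bap1 KO tumours, and Cdkn1a is the classical p53 target. The sequences follow below. They are RefSeq windows of 300 bases on GRCm38.p6, from 250 bases before to 50 after a transcription start, printed 5′ to 3′ on the gene's strand. The counts were made on mm9, so these coordinates are those of the sequence table alone. In the windows of Cdkn2a and Cdkn2b, capitals mark E2F motifs (TTTCCCGC, TTTGGCGC or TTTCGCGC, on either strand). In the window of Cdkn1a, capitals mark matches to the p53 decamer.
Cdkn2a, upstream start, chr4:89294570-89294869, minus strand: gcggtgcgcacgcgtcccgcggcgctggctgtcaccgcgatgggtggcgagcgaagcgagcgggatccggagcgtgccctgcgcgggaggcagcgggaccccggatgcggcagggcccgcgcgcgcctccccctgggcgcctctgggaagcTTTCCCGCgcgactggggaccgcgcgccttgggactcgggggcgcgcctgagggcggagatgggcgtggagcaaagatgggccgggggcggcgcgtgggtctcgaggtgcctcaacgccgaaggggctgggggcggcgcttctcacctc
Cdkn2a, downstream start, chr4:89282143-89282442, minus strand: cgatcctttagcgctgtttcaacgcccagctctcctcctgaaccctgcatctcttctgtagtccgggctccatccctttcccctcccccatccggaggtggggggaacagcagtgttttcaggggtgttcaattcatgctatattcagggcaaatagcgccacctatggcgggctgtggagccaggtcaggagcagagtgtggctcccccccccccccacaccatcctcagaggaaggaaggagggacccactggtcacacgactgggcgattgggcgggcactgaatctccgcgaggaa
Cdkn2b, chr4:89310983-89311282, minus strand: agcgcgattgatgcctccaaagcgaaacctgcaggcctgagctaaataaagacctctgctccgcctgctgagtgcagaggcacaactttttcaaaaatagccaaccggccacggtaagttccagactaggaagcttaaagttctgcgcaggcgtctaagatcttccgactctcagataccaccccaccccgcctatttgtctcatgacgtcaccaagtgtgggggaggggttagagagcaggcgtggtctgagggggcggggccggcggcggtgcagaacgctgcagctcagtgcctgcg
Cdkn1a, upstream start, chr17:29090729-29091028, plus strand: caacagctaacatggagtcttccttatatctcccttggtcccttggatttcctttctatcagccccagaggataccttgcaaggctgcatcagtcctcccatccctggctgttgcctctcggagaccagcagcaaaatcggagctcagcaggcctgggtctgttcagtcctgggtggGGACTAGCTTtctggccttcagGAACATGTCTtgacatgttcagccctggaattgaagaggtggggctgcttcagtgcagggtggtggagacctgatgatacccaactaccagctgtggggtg
The starts of Cdkn2a lie 12427 bases apart, and the start of Cdkn2b lies 16413 bases upstream of the distal Cdkn2a start. A count over the whole of Cdkn2a does not separate transcripts of the 2 starts. The distal Cdkn2a window held 1 E2F motif, and it was the single member window of 11 with such a motif, which 1.84% of all 32851 windows hold. The upstream Cdkn1a window held 2 p53 decamers, against 2 or more in 0.359% of all windows and at least 1 in 8.36%. The window of the other Cdkn1a start, 2790 bases downstream, held 0 decamers. At least 1 decamer was also found in windows of Cdkn2d, Trp53 and Mdm2. A match describes letters and is not a binding site. Windows were present for 8 of the 10 genes.

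Each level is a deposited count per 1000000 counts of its library (CPM), scaled with TMM factors. Total counts ran from 18338082 to 81035135 per library. Reads on the human oncogene transgenes followed the labels. The hGNA11-Q209L sequence had 120 to 2807 counts in the 7 GNA11 libraries and at most 5 in the BRAF libraries. The BRAF sequence had 43 to 81 counts in the BRAF libraries and at most 1 elsewhere. Other construct sequences differed within genotypes. The hFLPe sequence had 1244, 659, 1, 3242 and 7563 counts in GNA11 Q209L Bap1 KO and 6618, 3353, 12 and 3987 in BRAF V600E Bap1 KO. It had 1 count in each GNA11 Q209L library. CreERT2 had 15, 6, 708 and 21 counts in BRAF V600E Bap1 KO and 2904 to 13760 in the GNA11 libraries. Their part in the gene values was not tested. Bap1 itself was counted at 85.0 and 137 CPM in GNA11 Q209L, at 101 to 170 CPM in the Bap1 KO tumours with GNA11 Q209L and at 54.7 to 71.3 CPM in those with BRAF V600E. Among GNA11 tumours the gene count was thus not lower with the knockout label, and since the labels do not say which exons are deleted, it does not check the knockout. In the header repeated at the end of the count table, the Bap1 entry of BRAF V600E Bap1 KO replicates 2 and 4 reads NA, whereas the header at its top gives the same floxed Bap1 entry for all 9 Bap1 KO libraries. The 10 melanocyte markers summed to between 67442 and 100965 CPM in the GNA11 libraries and to between 50.9 and 655 CPM in the BRAF libraries. The BRAF V600E Bap1 KO tumours therefore carried almost none of the melanocyte RNA of the others, and the part of this difference in any comparison with them was not tested. All 10 fibroblast and all 9 skeletal muscle markers tested were called lower in GNA11 Q209L Bap1 KO than in these tumours. The muscle sums were uneven, at 92.4, 279, 34.7 and 5940 CPM in BRAF replicates 1 to 4. In GNA11 Q209L Bap1 KO they were 7.75 to 111 CPM, and the highest, in replicate 3, exceeded those of BRAF replicates 1 and 3. In bulk tumours, fewer cells of a type and less RNA per cell cannot be told apart.

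**Figure D1:**
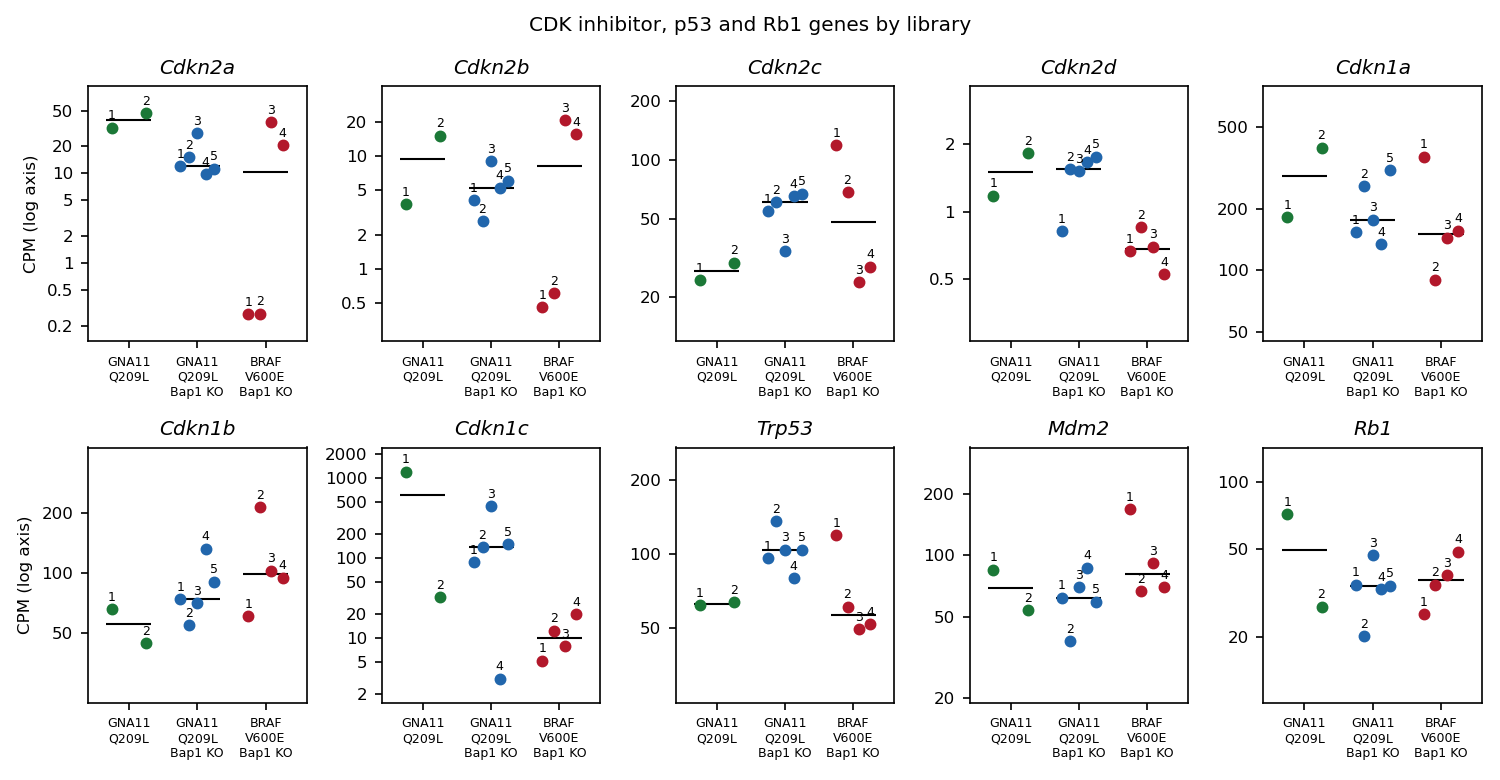
CPM of the 10 genes in each library on a log axis, by genotype. Points are libraries with their replicate numbers and lines are group medians. Cdkn2a and Cdkn2b were lowest in BRAF V600E Bap1 KO replicates 1 and 2, and Cdkn1c spanned from 3.09 to 1215 CPM.

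Cdkn2a and Cdkn2b, the neighbouring INK4 genes whose products block Cdk4 and Cdk6, divided the BRAF V600E Bap1 KO tumours. Cdkn2a was at 0.270, 0.272, 37.1 and 20.7 CPM in BRAF replicates 1 to 4. It was at 12.0, 15.3, 27.8, 9.75 and 11.3 CPM in GNA11 Q209L Bap1 KO and at 32.3 and 47.0 CPM in GNA11 Q209L. BRAF replicates 1 and 2 thus lay far under every other library, while replicates 3 and 4 lay among the GNA11 tumours. The 2 low values rested on 24 and 8 counts, with exact 95% Poisson intervals of 0.173 to 0.401 and 0.118 to 0.537 CPM that cover counting error only. The lowest GNA11 library, at 9.75 CPM, held 205 counts.

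Cdkn2b showed the same split. It was at 0.460, 0.613, 20.7 and 15.5 CPM in the BRAF tumours. The GNA11 Q209L Bap1 KO tumours held 4.07, 2.65, 8.97, 5.23 and 6.03 CPM, and those without the knockout 3.77 and 15.1 CPM. BRAF replicates 1 and 2 were again lowest of all 11, with 41 and 18 counts, and BRAF replicates 3 and 4 were highest of all.

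Because each low pair stood beside a high pair of the same genotype, the genotype means hid the pattern. Cdkn2a averaged 14.6 ± 17.8 CPM (SD, n = 4) in the BRAF tumours, 15.2 ± 7.30 CPM (n = 5) in GNA11 Q209L Bap1 KO and 39.6 ± 10.4 CPM (n = 2) in GNA11 Q209L. The log2 difference of GNA11 Q209L Bap1 KO from BRAF V600E Bap1 KO was 0.07 ± 1.11 (SE, adjusted p = 0.967 by edgeR). For Cdkn2b it was -0.79 ± 0.98 (adjusted p = 0.534). Within the BRAF genotype the highest library exceeded the lowest 137.5-fold for Cdkn2a and 45.1-fold for Cdkn2b, compared with 2.85-fold and 3.38-fold within GNA11 Q209L Bap1 KO.

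The genes next to this pair were looked at after its values had been seen. Names and order came from RefSeq on GRCm38.p6, among genes in the count table. Mtap, a methionine salvage enzyme gene beside Cdkn2a, was at 3.43 CPM in BRAF replicate 1 and at 512, 33.6 and 40.5 CPM in replicates 2 to 4. The 7 GNA11 libraries held 69.0 to 125 CPM of Mtap. Replicate 1 was thus lowest and replicate 2 highest of all 11 libraries. Klhl9, an adaptor of a ubiquitin ligase and the next gene out, was at 14.0, 79.6, 52.0 and 85.8 CPM in the BRAF tumours against 49.0 to 134 CPM in the GNA11 tumours, with replicate 1 again lowest of all. Mllt3, further out on that side, was at 64.6, 59.5, 12.0 and 27.2 CPM, so that replicates 1 and 2 were highest there. On the other side, Dmrta1 was at 0.0225, 21.6, 1.18 and 1.09 CPM in the BRAF tumours and at most 0.163 CPM in any GNA11 tumour. These values rested on 2, 635, 34 and 25 counts in the BRAF tumours and on at most 5 counts in any GNA11 tumour. Dmrta1 was thus barely detected in BRAF replicate 1 and in the GNA11 tumours. Replicate 2 therefore stood highest in the 2 genes that flank the pair, Mtap and Dmrta1, whereas replicate 1 was lowest in Klhl9 and Mtap.

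**Figure D2:**
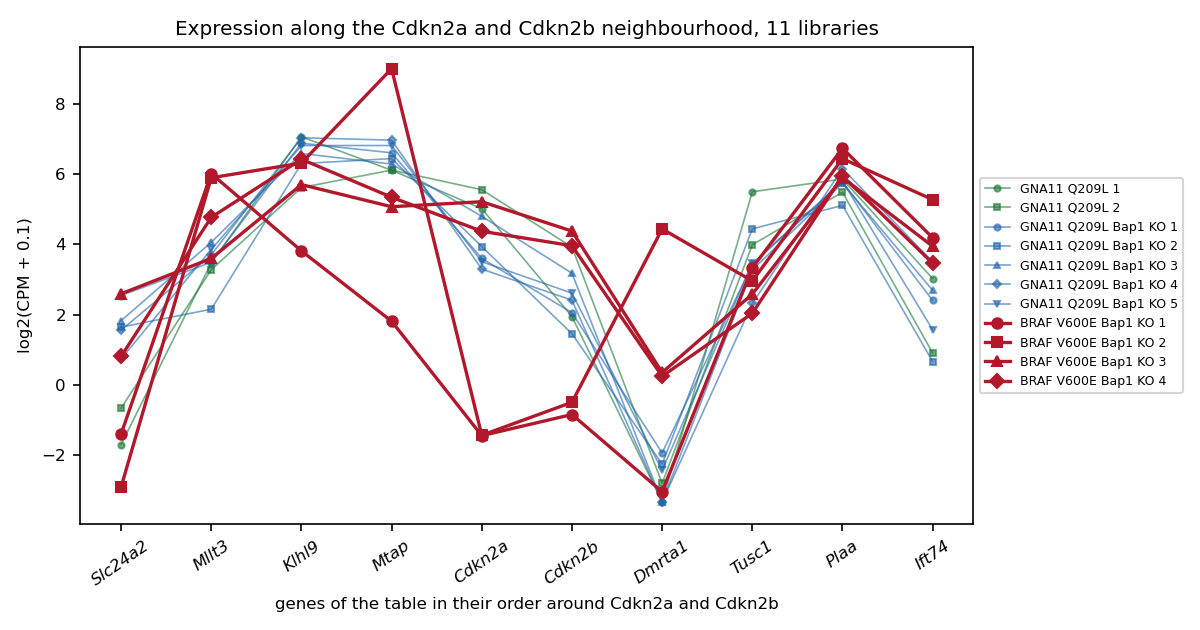
Expression of 10 neighbouring genes in each of the 11 libraries, as log2(CPM + 0.1), in gene order around Cdkn2a and Cdkn2b. Thick red lines are BRAF V600E Bap1 KO and thin lines the GNA11 genotypes. In BRAF replicate 1 the values drop from Klhl9 to Cdkn2b, while in replicate 2 Mtap and Dmrta1 are highest and the genes between them are near their lowest.

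The RNA makeup of the BRAF tumours also differed along this split. The 10 keratinocyte markers summed to 170, 346, 14058 and 5539 CPM in BRAF replicates 1 to 4, and the 10 fibroblast markers to 4648, 4340, 23874 and 15529 CPM. The Schwann cell markers summed to 123, 386, 1732 and 882 CPM and the melanocyte markers to 50.9, 94.3, 655 and 421 CPM. The sums of all 4 marker sets were thus higher in replicates 3 and 4, where Cdkn2a and Cdkn2b were expressed. Single markers did not all follow their sums. The fibroblast marker Pdgfra was at 1181, 763, 145 and 101 CPM in BRAF replicates 1 to 4, and Thy1 at 840, 1071, 524 and 177 CPM. The Schwann cell marker S100b was at 55.6, 317, 133 and 6.38 CPM. Sox10, a transcription factor gene of melanocytes and Schwann cells, was at 1.93, 3.58, 533 and 232 CPM in the BRAF tumours and at 527 to 2101 CPM in the GNA11 tumours, all of which expressed Cdkn2a. Sox10 is counted among the melanocyte markers and made up most of their sum in BRAF replicates 3 and 4. In BRAF replicates 1 to 4 the melanocyte marker Mitf was at 31.2, 34.0, 24.9 and 44.1 CPM, and Dct at 5.37, 17.0, 30.9 and 52.1 CPM. The macrophage sums ran the other way, at 2728, 2705, 712 and 1631 CPM, although the macrophage marker Lyz2 was highest in replicate 4, at 660 CPM. In GNA11 Q209L Bap1 KO, where Cdkn2a was at 9.75 to 27.8 CPM, the keratinocyte sum was 1653 CPM in replicate 1 and 1.33 to 7.40 CPM in the other 4 libraries. The fibroblast sum there was 391 to 2502 CPM and the Schwann cell sum 513 to 1381 CPM. The part of these markers in the Cdkn2a and Cdkn2b values of the BRAF tumours was not tested.

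Among GNA11 tumours, Cdkn2a was lower in all 5 with the Bap1 knockout than in both without it. The log2 difference was -1.38 ± 1.31 and its adjusted p was 0.755. This SE comes from the fit to all 11 libraries, so it includes the spread of the BRAF tumours. The SD of log2 CPM was 3.87 in those, against 0.38 in GNA11 Q209L and 0.59 in GNA11 Q209L Bap1 KO. The fibroblast markers moved the same way: all 10 had a fitted difference under 0, 9 of them at an unadjusted p under 0.05 and 0 at an adjusted one. Their part in the Cdkn2a values was not tested. Xist, the RNA that coats the inactive X chromosome and marks female cells, nearly followed the knockout label, at 358 and 198 CPM in GNA11 Q209L and at 0.428 to 1.42 CPM in all knockout tumours but replicate 3, which held 694 CPM. With Xist as a covariate the log2 difference of Cdkn2a was -0.83 (adjusted p = 0.928). The genes nearest to Cdkn2a in pattern over the 11 libraries were Zfp536, Foxd3 and Entpd2, with root mean square differences of 0.83, 0.88 and 0.89 on the gene-centred log2 CPM scale. For Cdkn2b they were Tubb2b, Wscd1 and Pde8a, at 0.69, 0.71 and 0.73. Likeness was measured among 11387 genes and says nothing of shared control.

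Cdkn2c encodes p18Ink4c, an INK4 inhibitor with roles in differentiating cells. It was at 24.5 and 30.0 CPM in GNA11 Q209L, and the Bap1 KO tumours of that oncogene held 55.1, 60.9, 34.4, 65.7 and 67.5 CPM. These ranges were separate, with Bap1 KO replicate 3 closest to the others. The log2 difference of 1.06 ± 0.58, a 2.08-fold higher fitted level, did not pass the test (adjusted p = 0.54). In BRAF V600E Bap1 KO, Cdkn2c was at 119, 68.6, 23.9 and 28.7 CPM. Replicates 1 and 2, which lacked most Cdkn2a and Cdkn2b, were highest of all 11 libraries for Cdkn2c, and replicate 3 was lowest. Only replicate 1 stood clear, since replicate 2, at 68.6 CPM, was close to GNA11 Q209L Bap1 KO replicate 5, at 67.5 CPM. Over the 4 BRAF tumours Cdkn2c averaged 60.1 ± 44.3 CPM, and the log2 difference of GNA11 Q209L Bap1 KO from them was -0.08 ± 0.44 (adjusted p = 0.889). Zadh2, Mapk11 and Mttp were nearest to Cdkn2c in pattern (0.25, 0.33 and 0.35).

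Cdkn2d encodes p19Ink4d and was barely expressed. It was at 1.18 and 1.83 CPM in GNA11 Q209L, at 0.814, 1.55, 1.51, 1.67 and 1.76 CPM in GNA11 Q209L Bap1 KO and at 0.663, 0.851, 0.696 and 0.524 CPM in the BRAF tumours. All 4 BRAF tumours were low, and only Bap1 KO replicate 1 reached into their range from above. Counts ran from 12 to 102 per library. GNA11 Q209L Bap1 KO exceeded BRAF V600E Bap1 KO 2.13-fold, a log2 difference of 1.09 ± 0.40 whose adjusted p of 0.05004 lay just above the threshold of 0.05. DESeq2 placed the same difference under it (adjusted p = 0.0109), as did the fit to these 2 genotypes alone, the fit with libraries that share an identifier summed and the fit without GNA11 Q209L Bap1 KO replicate 1 (0.0417, 0.0431 and 0.0382). The gene ID of Cdkn2d in the table is absent from GENCODE M21, so its count may cover an older gene model. Cdc42se2, Wbp1 and Gab2 were nearest to it in pattern (0.21, 0.22 and 0.22).

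Cdkn1c, encoding p57Kip2, an imprinted inhibitor with a strong link to growth control in development, varied more than any other member. GNA11 Q209L held 1215 and 32.2 CPM. GNA11 Q209L Bap1 KO held 89.1, 137, 448, 3.09 and 149 CPM. The 4 BRAF tumours held 5.22, 12.4, 7.86 and 19.8 CPM. The BRAF tumours were low without exception, but Bap1 KO replicate 4 was lower than any of them, so these 2 genotypes overlapped. Within GNA11 Q209L Bap1 KO the highest library exceeded the lowest 144.8-fold.

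Cdkn1c was the single member called in either comparison with BRAF V600E Bap1 KO. It was higher in GNA11 Q209L Bap1 KO by a log2 difference of 3.87 ± 1.26, or 14.6-fold, with an adjusted p of 0.0315. It was also higher in GNA11 Q209L, by 5.78 ± 1.47 or 55.1-fold, with an adjusted p of 0.0303, and there the groups did not overlap. These comparisons share the BRAF libraries and are not independent. Without GNA11 Q209L replicate 1 the second difference was 1.52 with an adjusted p of 0.461, and it also lost its call without BRAF replicate 2 or 3 (0.0582 and 0.0566), with these 2 genotypes alone (0.0607) and under limma voom (0.143). The first lost its call without Bap1 KO replicate 3 (adjusted p = 0.0594) or without BRAF replicate 1, 2 or 3 (adjusted p of 0.0670, 0.0658 and 0.0714), and under limma voom (0.146). Between the GNA11 genotypes the log2 difference was -1.92 ± 1.27 (adjusted p = 0.626), and it became 2.36 without GNA11 Q209L replicate 1.

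The libraries with most Cdkn1c differed in other ways. GNA11 Q209L replicate 1, with 1215 CPM of Cdkn1c, had fibroblast and macrophage marker sums of 12192 and 6640 CPM, against 3078 and 770 CPM in replicate 2. Bap1 KO replicate 3, with 448 CPM, was the library of its group with high Xist. In BRAF replicates 1 to 4 Xist was at 99.7, 0.920, 1223 and 0.262 CPM. High Xist thus also stood beside low Cdkn1c, at 7.86 CPM in BRAF replicate 3. With Xist as a covariate the difference of GNA11 Q209L Bap1 KO from BRAF V600E Bap1 KO was 3.60 with an adjusted p of 0.0571. Bap1 KO replicate 3 had a fibroblast sum of 472 CPM and a macrophage sum of 1126 CPM, the latter the highest of its group. The BRAF tumours, all low in Cdkn1c, had fibroblast sums of 4340 to 23874 CPM and macrophage sums of 712 to 2728 CPM. The part of the fibroblast and macrophage markers in the Cdkn1c values was not tested. The genes nearest to Cdkn1c in pattern, F7, Il7r and Hk3, still differed from it by 1.17, 1.19 and 1.24 on the root mean square log2 scale.

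Cdkn1a encodes p21, the inhibitor through which p53 arrests the cell cycle. It was at 181 and 397 CPM in GNA11 Q209L, at 154, 257, 176, 134 and 307 CPM in GNA11 Q209L Bap1 KO and at 359, 90.1, 144 and 156 CPM in the BRAF tumours. All 3 groups overlapped, with GNA11 Q209L replicate 2 and BRAF replicate 1 on top. The log2 differences of GNA11 Q209L Bap1 KO were -0.49 ± 0.52 from GNA11 Q209L (adjusted p = 0.788) and 0.14 ± 0.43 from BRAF V600E Bap1 KO (adjusted p = 0.815). Cxxc5, Wdr46 and Fkbp10 were nearest to it in pattern (0.28 each).

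Cdkn1b encodes p27Kip1, which holds Cdk2 complexes in resting cells. It was at 65.9 and 44.5 CPM in GNA11 Q209L, at 73.7, 54.4, 70.4, 132 and 90.3 CPM in GNA11 Q209L Bap1 KO and at 60.8, 213, 102.5 and 94.6 CPM in the BRAF tumours. BRAF replicate 2 was highest and GNA11 Q209L was low, but each pair of groups overlapped. The log2 difference of GNA11 Q209L Bap1 KO was 0.61 ± 0.48 from GNA11 Q209L (adjusted p = 0.688, and 0.26 with the Xist covariate) and -0.48 ± 0.37 from BRAF V600E Bap1 KO (adjusted p = 0.31). That of GNA11 Q209L from BRAF V600E Bap1 KO was -1.09 ± 0.51 (adjusted p = 0.144). Fancl, Amn1 and Srsf3 were nearest to Cdkn1b in pattern (0.22, 0.25 and 0.25).

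Trp53 was tightest within the GNA11 genotypes. It was at 62.0 and 63.4 CPM in GNA11 Q209L and at 96.4, 136, 104, 79.8 and 104 CPM in GNA11 Q209L Bap1 KO. All 5 Bap1 KO tumours were above both others, and the fitted level was 1.66-fold higher, a log2 difference of 0.73 ± 0.36 (adjusted p = 0.494). The BRAF tumours were at 119, 61.0, 49.5 and 51.7 CPM, with replicate 1 at about the Bap1 KO level and the other 3 under it. The log2 difference of GNA11 Q209L Bap1 KO from BRAF V600E Bap1 KO was 0.56 ± 0.28 (adjusted p = 0.131). Without BRAF replicate 1 it was 0.94 with an adjusted p of 0.00774, and in no other alternative did Trp53 pass the threshold against these tumours. Thada, Fbl and Ruvbl2 were nearest to Trp53 in pattern (0.15, 0.16 and 0.16).

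Mdm2, the gene of the ubiquitin ligase that p53 induces and that degrades p53, was at 84.8 and 54.0 CPM in GNA11 Q209L and at 61.9, 37.9, 69.6, 86.8 and 59.2 CPM with the knockout. In the BRAF tumours it was at 168, 66.8, 91.5 and 69.5 CPM. BRAF replicate 1 was the highest of all 11 libraries, as it was for Cdkn2c, BRAF replicate 3 was next, and the other BRAF tumours lay among the GNA11 tumours. The log2 difference of GNA11 Q209L Bap1 KO was -0.65 ± 0.33 from BRAF V600E Bap1 KO (adjusted p = 0.132) and -0.14 ± 0.41 from GNA11 Q209L (adjusted p = 0.945). BRAF replicate 1 thus combined the highest Mdm2 and Cdkn2c, the second highest Trp53 and Cdkn1a and almost no Cdkn2a. Fpgt, Noc3l and Map3k12 were nearest to Mdm2 in pattern (0.14, 0.19 and 0.21).

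Rb1, whose product is the target of the kinases that the inhibitors block, was at 71.5 and 27.5 CPM in GNA11 Q209L, at 34.5, 20.3, 46.7, 33.0 and 34.2 CPM in GNA11 Q209L Bap1 KO and at 25.5, 34.5, 38.1 and 48.6 CPM in the BRAF tumours. The groups overlapped and GNA11 Q209L replicate 1 was alone at the top. The log2 difference of GNA11 Q209L Bap1 KO was -0.55 ± 0.40 from GNA11 Q209L (adjusted p = 0.656) and -0.12 ± 0.33 from BRAF V600E Bap1 KO (adjusted p = 0.782). The Rb1 gene holds Lpar6 and overlaps Rcbtb2 on the opposite strand, and the sources used here do not say whether counting used strand, so their reads may not be separate. Rab8b, Ubxn2b and Elmod2 were nearest to Rb1 in pattern (0.20, 0.26 and 0.27).

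Over the 10 members, 0 were called when the GNA11 genotypes were compared with each other, where edgeR called 0.0288% of the 17350 genes tested (0.00576% higher and 0.0231% lower with the knockout). No member reached an unadjusted p under 0.05 there, and none was called by DESeq2 or limma voom. The ranges of these groups were separate for 3 members, against 16.6% of all genes. Trp53 and Cdkn2c were higher with the knockout (2 members, against 7.57% of all genes), and Cdkn2a was lower (1 member, against 9.01%). The median log2 difference of the members was -0.31, beside -0.0041 for all genes.

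GNA11 Q209L Bap1 KO differed from the BRAF tumours in 1 of 10 members, against 41.2% of all genes. Cdkn1c was called higher, as were 16.5% of all genes, and 0 members were called lower, against 24.7%. At an unadjusted p under 0.05 there were 2 members, Cdkn1c and Cdkn2d, while DESeq2 called 2 members and limma voom 0. The ranges were separate for 0 members, against 31.8% of all genes (14.7% higher and 17.2% lower). The members' median was -0.0095, beside -0.26 for all genes. GNA11 Q209L differed from the BRAF tumours in 1 of 10, against 15.2% of all genes (9.27% higher and 5.93% lower). There 2 members stood apart, Cdkn1c and Cdkn2d, both higher in GNA11 Q209L, against 41.9% of all genes (19% higher and 22.9% lower), and the members' median was 0.22, beside -0.23. Under DESeq2 the split over all genes turned in this last comparison, from 1609 higher and 1028 lower to 2325 and 3133.

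**Figure D3:**
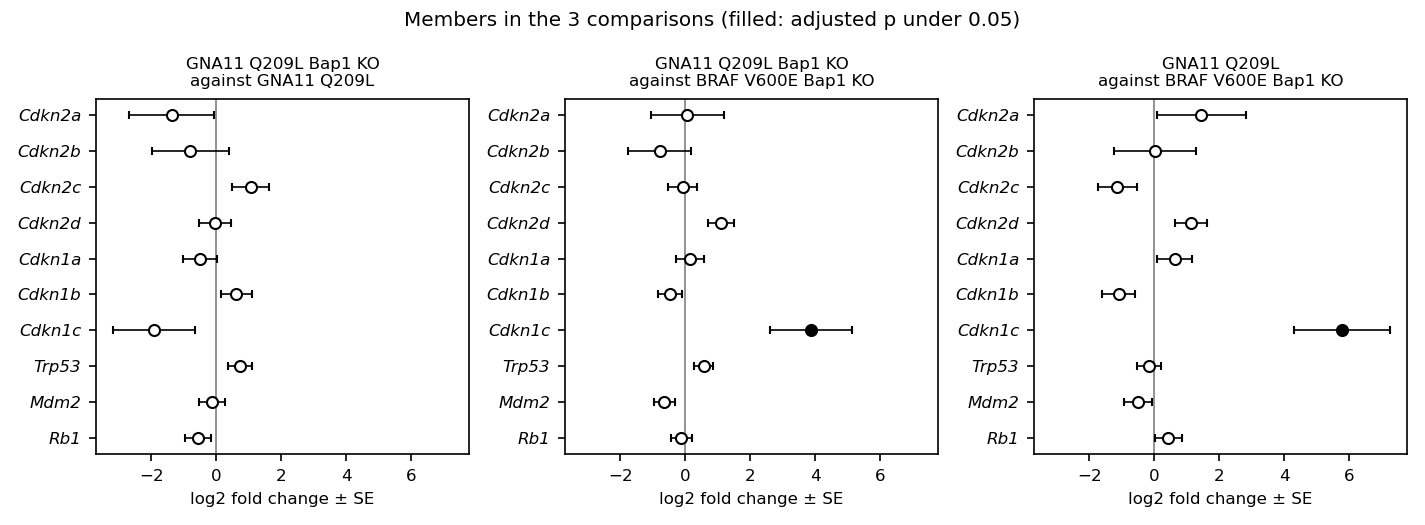
Log2 fold changes of the 10 genes with their SE in the 3 comparisons, the first genotype over the second. Filled points have an adjusted p under 0.05. Cdkn1c alone is filled, at 3.87 and 5.78 in the comparisons with BRAF V600E Bap1 KO.

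Levels of different genes were compared per kilobase of exon, with exon lengths from GENCODE M21, an annotation of a later build than the counts. In GNA11 Q209L Bap1 KO, Cdkn1c and Cdkn1a led, with mean levels of 81.0 ± 82.4 and 57.9 ± 20.7 CPM per kilobase (SD). Trp53 followed at 25.7 ± 5.02, Cdkn2c at 21.1 ± 4.97 and Cdkn1b at 18.5 ± 6.54 CPM per kilobase. Cdkn2a, at 13.0 ± 6.23, and Mdm2, at 12.4 ± 3.49, came next, before Rb1 at 5.61 ± 1.56 and Cdkn2b at 3.88 ± 1.71 CPM per kilobase. Along this order the steps from Cdkn1a to Trp53 and from Mdm2 to Rb1 were wider than the sum of the SDs on either side, and the other steps were not. In BRAF V600E Bap1 KO, Cdkn1a led at 52.7 ± 33.2 CPM per kilobase, ahead of Cdkn1b at 25.9 ± 14.6, and Cdkn1c was last of 9 at 5.56 ± 3.14. No step between neighbours in the BRAF order was wider than that sum. Cdkn2d has no length in that annotation and was left out of these orders.

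The genes that p53 induces were examined next. In GNA11 Q209L Bap1 KO against the BRAF tumours, 3 of 24 were called higher and 9 lower, where 16.5% of all genes were called higher and 24.7% lower. The median log2 difference was -0.24, beside -0.26 for all genes. Without GNA11 Q209L Bap1 KO replicate 2 the count of lower genes was 5. That of higher genes was 0 without BRAF replicate 2 or 4 or Bap1 KO replicate 5, and 1 without Bap1 KO replicate 2 or 3. Btg2, an antiproliferative gene, was lower by a log2 difference of -2.61 ± 0.39 (adjusted p = 0.00121), and the death receptor gene Fas by -3.12 ± 0.64 (adjusted p = 0.00497). Pmaip1, encoding the apoptosis inducer Noxa, was at 142, 356, 9.81 and 6.03 CPM in the BRAF tumours and at most 9.68 CPM elsewhere. Its log2 difference was -6.01 ± 1.23 (adjusted p = 0.00488), and BRAF replicates 1 and 2, where Pmaip1 was highest, had almost no Cdkn2a. Eda2r, a death receptor gene of the ectodysplasin family, was at 61.7, 60.5, 15.0 and 15.1 CPM in the BRAF tumours, with the same libraries high. It was at 6.55 to 20.3 CPM in the GNA11 tumours, and its log2 difference was -1.85 ± 0.51 (adjusted p = 0.0166). Among GNA11 tumours 0 of the 24 were called by edgeR, DESeq2 or limma voom, 4 had an unadjusted p under 0.05 (Fas, Ckap2, Plk2 and Btg2), and the median was -0.39.

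Among 16 regulators and relatives of p53, 1 was called higher and 3 lower in GNA11 Q209L Bap1 KO than in BRAF V600E Bap1 KO. The shares of all genes were 16.5% and 24.7%. Rchy1, a ubiquitin ligase gene that acts on p53, was higher by 0.85 ± 0.22 on the log2 scale (adjusted p = 0.012), and Mdm4, the partner of Mdm2, was lower by -0.96 ± 0.32 (adjusted p = 0.0346). The p53 relative Trp63 was lower by -5.36 ± 1.63 (adjusted p = 0.0244). It is a gene of basal keratinocytes, and was at 2.67, 9.98, 75.1 and 136 CPM in the BRAF tumours, with replicates 3 and 4, those with the highest keratinocyte sums, on top. The other relative, Trp73, was lower by -4.16 ± 1.11 (adjusted p = 0.0146). The part of keratinocytes in Trp63 was not tested. Without Bap1 KO replicate 2 or 5, or BRAF replicate 4, the count of lower genes was 1. It was 2 for higher genes without Bap1 KO replicate 4 or BRAF replicate 4. With the knockout against GNA11 Q209L, 0 of 16 were called by edgeR and 2 by DESeq2, and 4 had an unadjusted p under 0.05. The DNA damage kinase genes Chek1 and Atm had log2 differences of 1.78 ± 0.49 (adjusted p = 0.249) and 1.38 ± 0.42 (adjusted p = 0.278).

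Of the 18 pocket protein and E2F genes, 0 were called higher and 4 lower in GNA11 Q209L Bap1 KO than in BRAF V600E Bap1 KO. The shares of all genes were 16.5% and 24.7%. Of the 18, 8 had an unadjusted p under 0.05. The 4 were Tfdp1 (-1.05 ± 0.28, adjusted p = 0.0137), E2f5 (-1.18 ± 0.33, adjusted p = 0.0172), E2f3 and Tfdp2. Tfdp1 and Tfdp2 encode the partners with which E2F proteins bind DNA. E2f5 overlaps a gene on the opposite strand. Leaving out any of the 7 GNA11 libraries lowered the 4 to 2. DESeq2 called 1 higher and 6 lower, and limma voom 0 and 3. With the knockout against GNA11 Q209L, 0 were called by edgeR or limma voom and 1 by DESeq2, 3 had an unadjusted p under 0.05, and Rbl1, a pocket protein gene related to Rb1, had a log2 difference of 1.16 ± 0.35 (adjusted p = 0.282).

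The CDK and cyclin genes, 18 in number, are the targets of the inhibitors. In GNA11 Q209L Bap1 KO, 5 were called higher and 3 lower than in BRAF V600E Bap1 KO. The shares of all genes were 16.5% and 24.7%. The median of the 18 was 0.29, beside -0.26 for all genes. Cdk2 was higher by 3.99 ± 0.27 (adjusted p = 3.57e-05), but its gene overlaps Pmel on the opposite strand. Pmel, a melanosome gene, held 18369 to 53489 CPM in the GNA11 libraries and 3.66 to 25.9 CPM in the BRAF libraries, so the reads of Cdk2 are uncertain. Ccnd3, a D-type cyclin gene, was higher by 2.07 ± 0.45 (adjusted p = 0.00639). Ccnh and Cdk7, whose products form the kinase that activates CDKs, were lower by -1.76 ± 0.37 (adjusted p = 0.00505) and by -1.68 ± 0.28 (adjusted p = 0.002). Between the GNA11 genotypes 0 of 18 were called by edgeR and 2 by DESeq2, with 5 at an unadjusted p under 0.05. There Ccne2 and Ccna2, the genes of S-phase cyclins, had log2 differences of 2.06 ± 0.59 and 1.98 ± 0.56 (adjusted p = 0.251 for both). Ccnd3, Ccnh, Ccna2 and Ccne2 also overlap genes on the opposite strand.

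The E2F target genes of DNA synthesis, which Rb1 holds in check, were compared between GNA11 Q209L Bap1 KO and the BRAF tumours. In the former 7 of 21 were called higher, against 16.5% of all genes. Their median was 0.54, beside -0.26 for all genes. Mcm2, a subunit gene of the replicative helicase, was at 132, 217, 63.5, 87.6 and 129 CPM in GNA11 Q209L Bap1 KO and at 26.7, 25.7, 36.8 and 27.7 CPM in the BRAF tumours. The groups stood apart, and the log2 difference was 2.11 ± 0.40 (adjusted p = 0.00355). Mcm5 (1.57 ± 0.43, adjusted p = 0.0166), Mcm3 (0.96 ± 0.28, adjusted p = 0.0214) and Rrm1, a subunit gene of ribonucleotide reductase (0.82 ± 0.21, adjusted p = 0.013), were also higher. Without Bap1 KO replicate 1, 2 or 5, or BRAF replicate 1, 3 or 4, the 7 became 4. They became 1 without BRAF replicates 2 and 4 together, the libraries with NA in the end header.

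In the same genes, the knockout tumours were next compared with GNA11 Q209L. No E2F target was called by edgeR or limma voom, while DESeq2 called 5 higher. All 21 had a fitted log2 difference above 0, with a median of 1.04, and 13 had an unadjusted p under 0.05, as had 1970 of all 17350 genes. In the same comparison the fibroblast markers had a median of -2.85 with 9 of 10 at an unadjusted p under 0.05, and the macrophage markers -1.67 with 4 of 9. The part of these markers in the E2F target values was not tested. Top2a, the topoisomerase gene of dividing cells, was at 13.8 and 11.8 CPM in GNA11 Q209L and at 116, 46.3, 40.5, 96.1 and 56.5 CPM with the knockout. The ranges were separate, and the log2 difference was 2.47 ± 0.51 (adjusted p = 0.133). Mki67, a marker of cycling cells, was at 8.60 and 8.16 CPM against 195, 47.2, 37.6, 71.4 and 22.9 CPM, also without overlap. Its log2 difference was 3.16 ± 0.80 (adjusted p = 0.221).

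**Figure D4:**
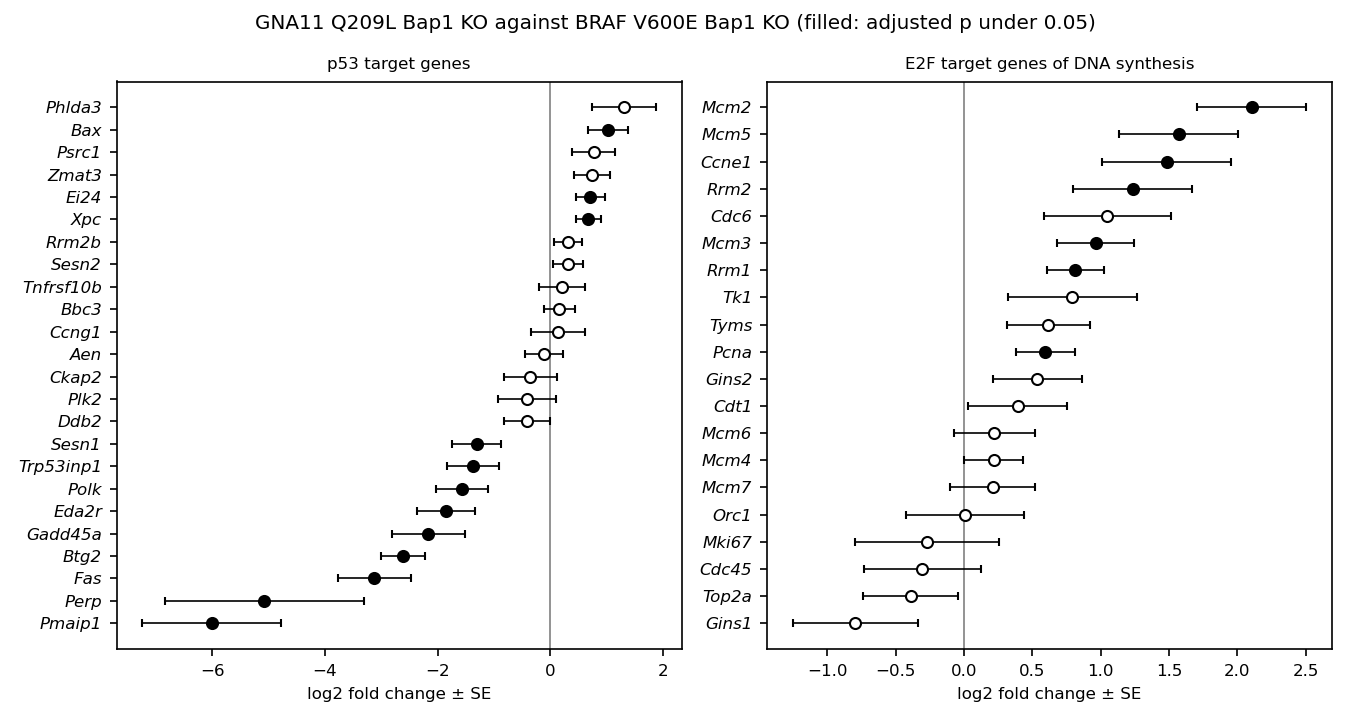
Log2 fold changes with their SE for 24 p53 target genes and 20 of the 21 E2F target genes, GNA11 Q209L Bap1 KO over BRAF V600E Bap1 KO. Filled points have an adjusted p under 0.05. Pmaip1 is lowest at -6.01 and Mcm2 highest at 2.11 in their panels.

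Genes that act on the inhibitors were examined last. In GNA11 Q209L Bap1 KO against BRAF V600E Bap1 KO, 16.5% of all genes were called higher and 24.7% lower. Of 12 genes for the turnover of CDK inhibitor proteins, 2 were called higher there and 0 lower, with 3 at an unadjusted p under 0.05. They were Rnf123, a ubiquitin ligase gene for p27Kip1 (1.23 ± 0.26, adjusted p = 0.00588), and Ddb1, an adaptor of a ubiquitin ligase that acts on p21 (1.31 ± 0.41, adjusted p = 0.0258). Rnf123 and Ddb1 also overlap genes on the opposite strand, as does Skp2. Without Bap1 KO replicate 2 or 5, or BRAF replicate 2, 3 or 4, 1 gene was called higher. Skp2, the ligase subunit best known for degrading p27Kip1, had a log2 difference of 0.48 ± 0.42 between the GNA11 genotypes (adjusted p = 0.727). There 0 of 12 were called by edgeR and 1 by DESeq2, with 2 at an unadjusted p under 0.05.

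Of 17 Cdkn2a and Cdkn2b locus regulators, 3 were called higher and 5 lower in GNA11 Q209L Bap1 KO than in the BRAF tumours. The shares of all genes were 16.5% and 24.7%. The median of the 17 was -0.49, beside -0.26 for all genes. The T-box genes Tbx2 and Tbx3, both known as repressors of Cdkn2a, went opposite ways. Tbx2 was at 107 to 418 CPM in the GNA11 libraries and at 12.6, 10.6, 27.7 and 7.17 CPM in the BRAF libraries, and was higher in GNA11 Q209L Bap1 KO by 3.81 ± 0.54 (adjusted p = 0.000978). Tbx3 was at 105, 38.2, 19.9 and 12.8 CPM in the BRAF tumours and at most 2.88 CPM in the GNA11 tumours, with a log2 difference of -5.95 ± 0.78 (adjusted p = 0.000732). Twist1, a transcription factor gene that can override the INK4 arrest, was at 167, 89.0, 24.1 and 17.3 CPM in the BRAF tumours and at most 9.05 CPM elsewhere (-6.38 ± 0.85, adjusted p = 0.000764). Tbx3 and Twist1 were thus highest in the BRAF libraries with almost no Cdkn2a, a description of 4 libraries with no test. Kdm6b, a histone H3 demethylase gene, was lower by -1.10 ± 0.20 (adjusted p = 0.00302). Between the GNA11 genotypes 0 of 17 were called by edgeR, DESeq2 or limma voom, with 2 at an unadjusted p under 0.05, Twist1 and Ezh2. Ezh2, the polycomb methyltransferase gene, had a log2 difference of 1.14 ± 0.42 (adjusted p = 0.354).

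GNA11 Q209L was also set against the BRAF tumours, which it shares with the comparison of GNA11 Q209L Bap1 KO. There 9.27% of all genes were called higher and 5.93% lower. Called higher were 2 of the 24 p53 targets (Phlda3 and Ei24) and 2 of the 18 CDK and cyclin genes (Cdk2 and Ccnd3). Called lower were 2 of the 16 p53 regulators (Mdm4 and Chek1), Tfdp1 alone of the 18 pocket protein and E2F genes, and Cdk7, Ccne2 and Ccnb1 of the CDK and cyclin genes. The E2F targets called lower included Top2a (-2.86 ± 0.53, adjusted p = 0.0097) and Mki67 (-3.43 ± 0.83, adjusted p = 0.0256), and the median of the 21 was -0.78, beside -0.23 for all genes. No gene of inhibitor turnover was called by edgeR, with 4 of 12 at an unadjusted p under 0.05, and of the 17 locus regulators 1 was called higher and 3 lower.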

How the data were processed

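The authors deposited 1 table of counts per mouse gene for 11 libraries made from total RNA, treated here as estimated counts since the counting program is not stated. Alignment used STAR with mm9, per the submitters' processing notes. The STAR version is not given in the sources used here, nor are the counting program, its strand setting and the annotation. All gene values were whole. Of 18769 lines, 7 repeats and 6 transgene sequences were kept out, leaving 18756 genes. Counts were tested with edgeR 4.0.16 (R 4.3.3), quasi-likelihood, TMM scaling and filterByExpr, which kept 17350 genes. All 11 libraries entered 1 fit with genotype as the term, so that the spread was shared with the 2 libraries of GNA11 Q209L. The SE of a difference between the GNA11 genotypes therefore also includes the spread of the BRAF tumours. Tests were two-sided, with Benjamini-Hochberg adjustment over all genes and 0.05 as the threshold. The SE is the log2 fold change over the square root of its F. The script was tested on simulated data with a smaller dispersion (spread between libraries) than the 0.419 fitted here. That test therefore does not show how the fit behaves at the spread of these tumours. Total counts ran from 18338082 to 81035135, and a count of 3 is worth 0.0370 to 0.164 per 1000000 counts.

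Named genes are all 10 members, up to 4 genes per list with the smallest p in each comparison with GNA11 Q209L Bap1 KO, the 3 nearest in pattern per member (average log2 CPM of at least 2), and genes overlapping a member. Pmel, Perp, Phlda3 and the neighbours of Cdkn2a were added after values were seen. Members and lists were chosen with earlier results of these data known. For 1 gene of the E2F target list, single values are not reported here. Alternatives were RLE scaling, DESeq2 1.42.0, limma voom 3.58.1, no filter, 2 genotypes alone, libraries that share an identifier summed, an Xist covariate, and each library left out.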

Additional observations from a re-analysis of the deposited data

Results flagged for a closer look

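Over the 10 members, 20 groups of 4 or 5 libraries were checked for a library far from the others in its group, and chance marks about 1 in 20 such groups. In 2 groups a library stood apart. Cdkn2d in GNA11 Q209L Bap1 KO replicate 1 was at 0.814 CPM, on 15 counts, and the nearest of the other 4 libraries was at 1.51 CPM. Trp53 in BRAF V600E Bap1 KO replicate 1 was at 119 CPM, and the nearest of the other 3 was at 61.0 CPM. Trp53 passed the threshold against GNA11 Q209L Bap1 KO only without that library.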

How the results depend on the processing

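No paired analysis was possible because the labels carry no replicate numbers that groups share. Between the GNA11 genotypes 0 members were called under all alternatives. Against BRAF V600E Bap1 KO, the count of members called in GNA11 Q209L Bap1 KO was 2 with DESeq2, with the 2 genotypes alone and with libraries that share an identifier summed (Cdkn1c and Cdkn2d), and 0 with limma voom, the Xist covariate or, in an alternative chosen after seeing the data, without BRAF replicates 2 and 4 together. Leaving out a library gave 0 to 2. For GNA11 Q209L against BRAF V600E Bap1 KO it was 0 with the 2 genotypes alone, the Xist covariate or without BRAF replicates 2 and 4, and 0 to 1 without a library. Limma voom gave 1 there, Cdkn2a in place of Cdkn1c. Over all genes DESeq2 called 224 higher and 218 lower between the GNA11 genotypes, against 1 and 4. Against BRAF V600E Bap1 KO, GNA11 Q209L Bap1 KO had 2865 higher and 4281 lower, and 2986 and 3117 with limma voom.

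No member whose direction turned was called in that comparison. In GNA11 Q209L Bap1 KO against GNA11 Q209L, Cdkn2d became 0.0223 with limma voom and 0.0029 with libraries summed, and Mdm2 0.17 with the Xist covariate. Against BRAF V600E Bap1 KO, Cdkn2b became 1.24 and Cdkn2c 0.18 with limma voom and Rb1 0.0061 with libraries summed. Without BRAF replicates 2 and 4, Cdkn1a became -0.32, Cdkn1b 0.0431, Cdkn2a -0.27 and Rb1 0.0782. For GNA11 Q209L against BRAF V600E Bap1 KO, Cdkn2b became -0.22 with the Xist covariate and -0.15 without BRAF replicates 2 and 4. Leaving out 1 library at a time, the log2 difference between the GNA11 genotypes ran from -0.95 to 0.26 for Cdkn1a, -2.81 to 2.36 for Cdkn1c, -1.49 to 0.57 for Cdkn2b, -0.32 to 0.37 for Cdkn2d, -0.38 to 0.22 for Mdm2 and -1.03 to 0.30 for Rb1. Against BRAF V600E Bap1 KO that of GNA11 Q209L Bap1 KO ran from -0.10 to 0.66 for Cdkn1a, -0.35 to 1.10 for Cdkn2a, -0.35 to 0.49 for Cdkn2c and -0.27 to 0.0632 for Rb1. That of GNA11 Q209L ran from -0.0501 to 1.15 for Cdkn1a, -1.29 to 0.76 for Cdkn2b, -0.31 to 0.21 for Trp53 and -0.41 to 0.97 for Rb1. The cause was not tested. With 2 GNA11 Q209L libraries, a library left out assumes that the other varies like the remaining groups.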
